A study of Mus musculus with 4 samples.

Results

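Pax7 occupancy was examined around 9 genes of fibroblast growth factor (FGF) signalling: the receptors Fgfr1, Fgfr2 and Fgfr3, the Sprouty inhibitors Spry1, Spry2 and Spry4, the ERK phosphatase Dusp6, and the ETS transcription factors Etv4 and Etv5. A peak was assigned to a gene when its summit, the base with the highest signal in the peak, lay from 100 kb before the start to 100 kb after the end of the gene in the GENCODE annotation of mm9 (NCBIM37). This gave 70 of the 20579 Pax7 peaks in the list. Of the 70 peaks, 43 lay in the window of Fgfr2, whose annotated record is 3.01 Mb long because of 1 transcript that is described with the receptors, and without that transcript 34 peaks remained, 7 of them at Fgfr2. Values are therefore given for both sets.

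The peaks came from chromatin of iPax7 cells, mouse embryonic stem cells that carry a Pax7 transgene switched on by doxycycline (Dox). Dox at 1 µg/ml was added on day 3 of embryoid body culture, cells positive for PDGFRα and negative for FLK1 were sorted on day 5, and these were grown with Dox and 10 ng/ml basic FGF until day 9, for 6 days of Dox in all. The 2 Pax7 immunoprecipitations and the 2 input controls, chromatin without antibody, came from cells of this same genotype and treatment, so an FGF ligand was present in all 4 libraries and Pax7 was the induced protein. The authors merged the libraries of each kind before calling peaks, so each peak has 1 value, there is no replicate error and no second condition, and no difference was tested. A peak list holds no expression values, so the cell type is given as the labels state it, and the list holds no read counts.

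FGF ligands bind receptor tyrosine kinases on the cell surface, which signal through the adaptor Frs2 and the RAS and ERK kinases to ETS factors such as Etv4 and Etv5. The same signal induces its own inhibitors: Sprouty proteins act on the pathway upstream of ERK, and Dusp6 removes the activating phosphates from ERK in the cytoplasm. In the muscle lineage FGF signalling is known for keeping myoblasts in proliferation, and Spry1 for its part in the return of satellite cells to quiescence. Pax7 binds DNA through a paired domain and a homeodomain, each with its own preferred sequence.

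The sequences at 5 summits are shown because each held a Pax motif within 50 bp. These were all the Pax motif peaks of the 34, and those of Dusp6 and Fgfr2 were chosen after their values were seen. They hold the summit and 50 bases to either side, on the plus strand of NCBIM37, at chr3:37571702-37571802 for Spry1, chr5:34164108-34164208 for Fgfr3, chr10:98709958-98710058 for Dusp6, and chr7:137404302-137404402 and chr7:137446442-137446542 for Fgfr2. Capitals mark every match to a motif that was searched. The paired-domain core GTCACG, read as CGTGAC on the other strand, is in all of them. Each is labelled with the gene whose window holds it, and the Fgfr3 summit lay 147 bp from a start of the neighbouring gene Whsc1.
Spry1, 32.9 kb downstream of the start: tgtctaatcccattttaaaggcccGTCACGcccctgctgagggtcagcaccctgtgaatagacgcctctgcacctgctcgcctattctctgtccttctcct
Fgfr3, 99.8 kb downstream of the start: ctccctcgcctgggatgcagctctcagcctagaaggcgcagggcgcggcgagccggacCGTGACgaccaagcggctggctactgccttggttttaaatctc
Dusp6, 15.9 kb upstream of the start: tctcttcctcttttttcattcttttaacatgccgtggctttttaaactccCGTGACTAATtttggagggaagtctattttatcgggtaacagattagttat
Fgfr2, 5.97 kb downstream of the start: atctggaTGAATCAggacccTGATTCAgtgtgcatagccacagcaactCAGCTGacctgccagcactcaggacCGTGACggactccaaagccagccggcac
Fgfr2, 36.2 kb upstream of the start: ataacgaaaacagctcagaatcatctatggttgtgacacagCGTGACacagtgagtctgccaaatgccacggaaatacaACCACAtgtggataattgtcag
In the Dusp6 sequence the core ran into ATTAGTCA, a homeodomain site joined to part of a paired site, here on the minus strand, so that both matches share bases. The first Fgfr2 sequence also held 2 AP-1 motifs (TGANTCA) and an E-box of the form CAGCTG, and the second a Runx motif (TGTGGT on the minus strand).

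Strong peaks without an exact match to a Pax motif that was searched are shown for comparison. They are at chr7:137525268-137525368 for Fgfr2, chr16:22389843-22389943 for Etv5, and chr14:106297141-106297241 for Spry2. Other forms of these sites were not searched.
Fgfr2, 115 kb upstream of the start: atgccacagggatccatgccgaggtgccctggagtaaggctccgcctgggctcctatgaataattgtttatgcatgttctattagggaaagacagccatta
Etv5, 49.9 kb downstream of the start: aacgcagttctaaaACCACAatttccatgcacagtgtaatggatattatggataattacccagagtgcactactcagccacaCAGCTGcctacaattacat
Spry2, 1.16 kb upstream of the start: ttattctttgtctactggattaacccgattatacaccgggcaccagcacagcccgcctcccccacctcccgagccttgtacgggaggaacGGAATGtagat
The Etv5 sequence held an E-box and a Runx motif, the Spry2 sequence a Tead motif (GGAATG), and the Fgfr2 sequence none of those searched.

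All 9 genes had at least 1 peak in their window, against 75.2% of the 22350 protein-coding gene records. The number of peaks differed widely among them. Dusp6 had 11 peaks and Spry1 had 5. Fgfr1 had 3, Fgfr3, Spry2 and Etv4 had 2 each, and Spry4 and Etv5 had 1 each, where the median protein-coding gene had 2 (quartiles 1 and 4). Because the window grows with the gene, the count was also taken per 100 kb of window. The 9 genes together had 1.40 peaks per 100 kb, and 1.63 without the long Fgfr2 transcript. The mean of the sequenced genome was 0.805. Taken gene by gene, the median of protein-coding genes was 0.916 (quartiles 0.204 and 1.64). The values for the 9 genes together pool all peaks over all windows, so they are not a like measure to this median. Dusp6 stood at 5.39 peaks per 100 kb, above 99.8% of protein-coding genes. Spry1 had 2.44 peaks per 100 kb, above 90.2% of coding genes, and Fgfr2 without the long transcript stood above 87.7% of them. Fgfr1 at 1.14 stood above 60.4% of coding genes. Spry2 at 0.976, Fgfr3 at 0.929 and Etv4 at 0.928 were close to the median of coding genes. Spry4 at 0.465 and Etv5 at 0.387 were below it.

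**Figure D1:**
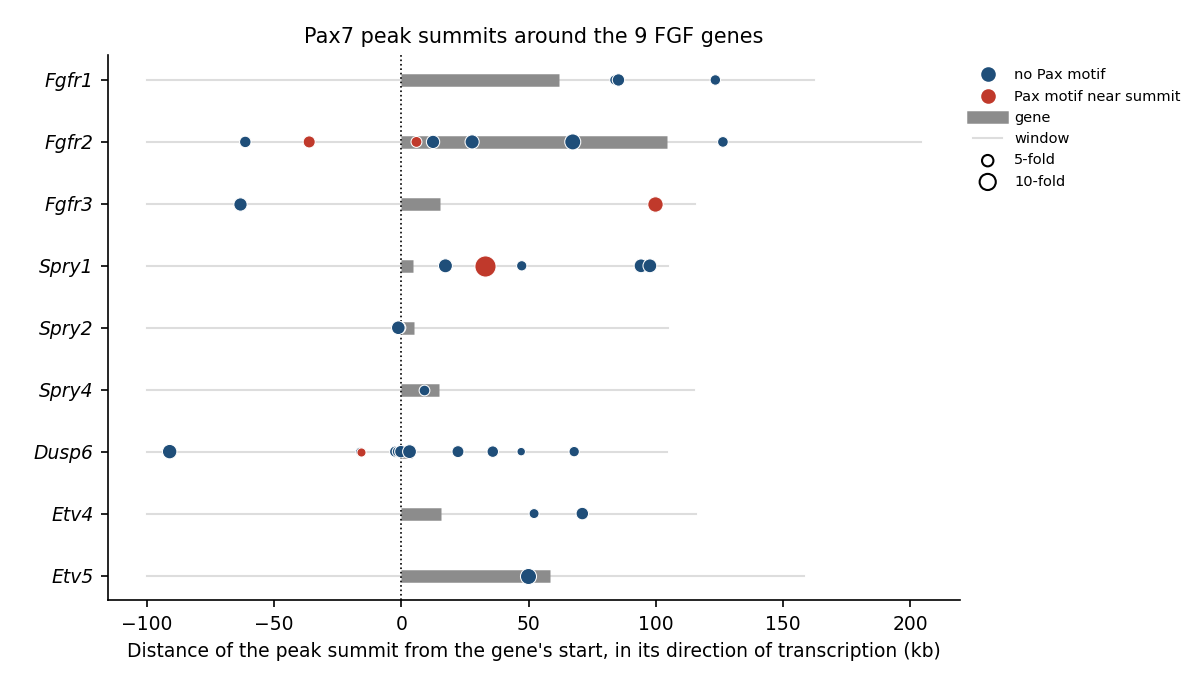
Position of each Pax7 summit on the horizontal axis, in kb from the gene's start along its direction of transcription, with 1 row for each of the 9 genes and Fgfr2 drawn without its 3.01 Mb transcript (34 peaks), point area growing with fold enrichment, grey bars for the genes and thin lines for the windows. Red marks the 5 peaks with a Pax motif, Dusp6 has 11 summits on both sides of the gene, and all 5 summits of Spry1 lie downstream.

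**Figure D2:**
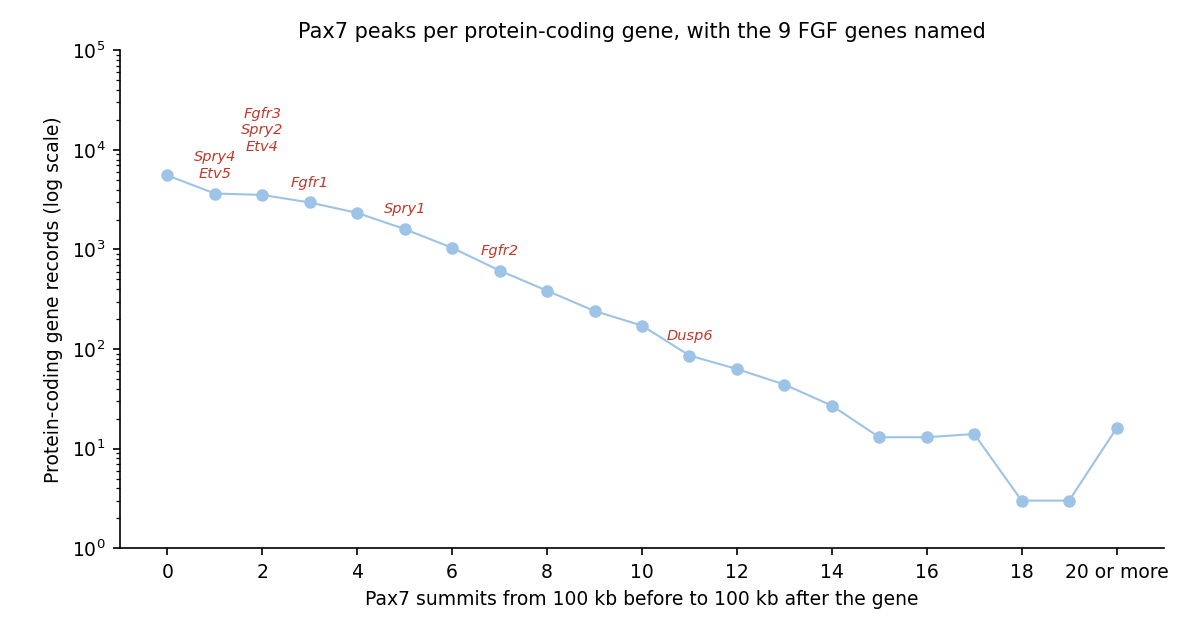
Number of Pax7 summits per protein-coding gene record (horizontal axis, summits within 100 kb of the gene) against the number of records with that count (vertical axis, log scale), with the 9 FGF genes named at their counts. Fgfr2 stands at 7, without its long transcript, and Dusp6 at 11 lies beyond the count of 98.7% of coding genes.

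The strength of the peaks was near that of the whole list. Fold enrichment, the ratio of ChIP signal to local background that the peak caller gives at the summit, had a median of 5.38 over the 70 peaks (range 2.62 to 17.3) and 5.60 over the 34 (2.76 to 17.3), against 5.22 over all peaks (quartiles 4.32 and 6.74). Of the 70 peaks, 41 reached 5-fold or more (58.6%, 95% Wilson interval 46.9 to 69.4%), as did 21 of the 34 (61.8%, interval 45.0 to 76.1%). Over all peaks the share was 54.9%, inside both intervals. At least 10-fold was reached by 5 of the 70 (7.14%) and by 1 of the 34 (2.94%), against 6.99% of all peaks. These shares were close to the background, and the intervals cover counting error only.

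**Figure D3:**
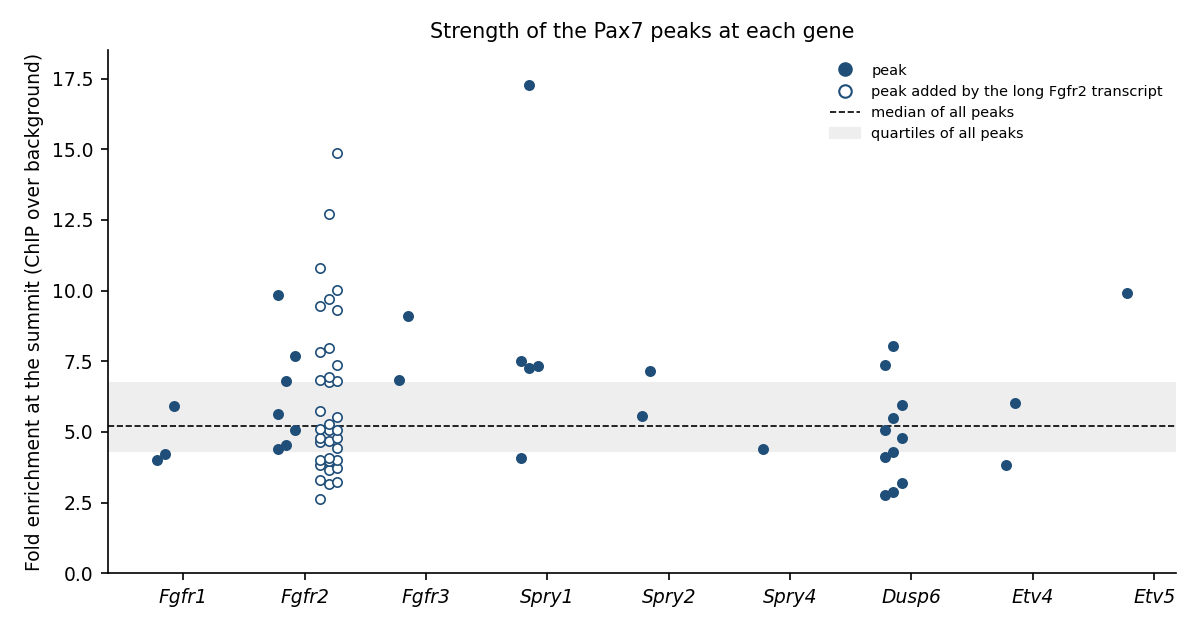
Fold enrichment at the summit (vertical axis, a ratio) for each peak of the 9 genes, with open circles for the 36 Fgfr2 peaks added by its long transcript, and the median (dashed, 5.22) and quartiles (grey band) of all 20579 peaks. The Spry1 peak at 17.3-fold is the highest, and the peaks of most genes spread around the dashed line.

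Of the receptors, Fgfr2 carried peaks within the gene and Fgfr1 and Fgfr3 did not. The Fgfr2 record runs over chr7:137305965-140315033 on the minus strand. Of its 29 transcripts, 28 lie in chr7:137306026-137410322, a stretch of 104 kb, and the remaining transcript, with 7 exons and 546 bp of coding sequence, spans the full 3.01 Mb. That transcript passes over other genes, among them Ate1, Tacc2, Plekha1, Chst15, Fam53b and Ctbp2, and 36 of the 43 peaks entered the set only through it.

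Within the 104 kb of Fgfr2 there were 4 peaks, all in introns. The strongest of them, in intron 7 of the transcript with most exons, was at chr7:137342755-137343137 and reached 9.84-fold with a −log10 q of 33.7, where q is the false discovery rate of the peak caller. A peak in intron 4 reached 7.68-fold. A pair of peaks in intron 2 reached 6.80-fold and 4.56-fold, and the weaker of these, 1019 bp from the start of a shorter Fgfr2 transcript, is the one with the paired core printed above. Outside the 104 kb and within 100 kb of it, peaks of 5.62-fold and 5.07-fold lay 36.2 kb and 61.3 kb upstream, and a peak of 4.39-fold lay 22.1 kb beyond the gene's end. No protein-coding start was nearer than one of Fgfr2 for any of these 7 peaks.

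A group of stronger peaks lay just past the 100 kb limit of the shorter record and was a member only through the long one. The closest of these, at 9.31-fold, was 100.5 kb upstream of the start. The next were at chr7:137523373-137523716 with 10.8-fold and at chr7:137525036-137525723 with 14.9-fold, their summits 1754 bp apart. The latter had a −log10 q of 69.7, a width of 688 bp and more enrichment than 98.8% of all peaks. Fgfr2 was again the gene with the nearest protein-coding start for all 3, at distances of 100.5, 113 and 115 kb. The second strongest peak of the long record, at chr7:139917535-139917961 with 12.7-fold, lay instead in an intron of Fam53b, 50.9 kb from the Fam53b start and 2507 kb from the start of the shorter Fgfr2 record.

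At Fgfr1 all 3 peaks lay downstream of the gene and next to the starts of its neighbours. The peak at chr8:26709358-26709579 reached 5.92-fold and the one at chr8:26707890-26708121 reached 4.00-fold, 1506 bp and 67 bp from a start of Letm2. The last, at chr8:26747381-26747594 with 4.23-fold, lay in an intron of Whsc1l1, a histone methyltransferase gene. Both Fgfr3 peaks were likewise at starts of neighbouring genes. The peak at chr5:34164026-34164418 reached 9.12-fold with a −log10 q of 29.5, and its summit was 147 bp from a start of Whsc1, a relative of Whsc1l1. The other, at chr5:34001065-34001261 with 6.83-fold, was 63 bp from the start of Tacc3, a mitotic spindle gene. Thus no Fgfr1 or Fgfr3 peak had a start of the receptor gene as its nearest coding start.

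The 3 Sprouty genes differed in where their peaks lay. Spry1 had no peak in the gene or upstream of it, and its 5 peaks were spread over the 93.0 kb past its end. The peak at chr3:37571516-37571925, intergenic and 32.9 kb downstream of the start, reached 17.3-fold with a −log10 q of 96.2. This was the strongest peak of the 9 genes and had more enrichment than 99.5% of all peaks. Its paired core began 26 bases before the summit. A peak of 7.50-fold at chr3:37556071-37556356 lay between it and the gene, 17.4 kb from the start. Farther out were peaks of 4.08-fold, 7.26-fold and 7.32-fold (chr3:37636432-37636642), 47.3, 94.2 and 97.7 kb from the start, and each of these was nearer to the coding start of the predicted gene Gm5148.

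Spry2 had its peaks at the promoter. The summits were 582 bp and 1155 bp upstream of the start, 573 bp from each other, with 5.58-fold at chr14:106296492-106296686 and 7.15-fold at chr14:106297106-106297323. Among protein-coding genes 2.65% had 2 or more summits within 5 kb of the start. Neither Spry2 window held a Pax motif of those searched. Spry4 had a single peak of 4.42-fold in intron 1, at chr18:38751910-38752105 and 8.91 kb from the start, which was weaker than the median of all peaks.

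Dusp6 had the densest occupancy of the 9 genes, with 6 peaks upstream, 1 in the gene and 4 downstream. Within 5 kb of its start there were 4 summits, a number reached by 0.0895% of protein-coding genes (20 of 22350). They were 2398 bp, 1438 bp and 143 bp upstream, with 4.78-fold, 4.30-fold and 5.96-fold, and 3242 bp downstream, with 7.35-fold and a −log10 q of 32.6. The last lies at chr10:98728944-98729266, in the untranslated part of exon 4, the last in the transcript with most exons. The promoter peak at chr10:98725532-98725919 had the start within it. These 4 peaks had more enrichment than 24.9% to 80.6% of all peaks, so the gene stood out by their number and not by their strength.

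The remaining Dusp6 peaks reached from 91.0 kb upstream to 67.9 kb downstream. The one farthest upstream, at chr10:98634653-98635099, was the strongest at 8.03-fold and lay within Poc1b, 960 bp from a start of that gene. A pair 16.2 and 15.9 kb upstream, with summits 357 bp apart, reached 2.88-fold and 3.20-fold, above only 1.12% and 3.24% of all peaks. The second of this pair held the combined paired and homeodomain motif printed above, so the longest Pax motif of the 34 peaks was at one of the weakest. Downstream, peaks of 5.48-fold, 5.09-fold, 2.76-fold and 4.13-fold were all intergenic. For 10 of the 11 peaks Dusp6 had the nearest protein-coding start.

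The ETS factor genes had few peaks. Etv5 had 1, in intron 12 of 14 exons at chr16:22389671-22390062, and it reached 9.90-fold with a −log10 q of 39.3, above 92.7% of all peaks. Etv4 had 2 peaks downstream of the gene, of 6.03-fold at chr11:101575473-101575710 and 3.84-fold at chr11:101594261-101594571. Both were nearer to the coding start of Dhx8, an RNA helicase gene of the splicing machinery, and the weaker was 153 bp from a start of it. No peak lay within 5 kb of the start of Etv4 or Etv5.

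Over the 34 peaks, 11 lay upstream, 7 within and 16 downstream of their gene, and for 23 the nearest protein-coding start was that of the member gene. Summits within 5 kb of the gene's own start were found at 2 of the 9 genes, Spry2 and Dusp6, where 18.0% of protein-coding genes had at least 1, so this count was not far from the background. The start here is the outermost one of each gene. An intronic Fgfr2 peak lay 1019 bp from the start of a shorter Fgfr2 transcript and is not in this count. Within 1 kb of the start of any annotated transcript there were 14 of the 70 summits (20.0%, interval 12.3 to 30.8%) and 7 of the 34 (20.6%, interval 10.3 to 36.8%), against 16.3% of all peaks. Of these 7, the starts were those of Dusp6 and Spry2 for 2 peaks and of neighbouring genes for the other 5. By position, 50.0% of the 34 peaks were intergenic and 26.5% intronic, against 39.0% and 42.1% of all peaks. This count kept the long Fgfr2 transcript in the annotation. The Fgfr2 peaks 36.2 kb and 61.3 kb upstream were intronic only through it. With that transcript left out they would be intergenic, which raises the intergenic share of the 34 and lowers the intronic one. No interval was taken for that count, so these shares were not compared further. Of the 70 peaks, 24.3% were intergenic (interval 15.8 to 35.5%), below the share of all peaks, and 51.4% were intronic (interval 40.0 to 62.8%). All 36 added peaks lay within the span of the long Fgfr2 transcript, so none of them could be intergenic.

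The 100 kb limit passed close to several peaks. On each side, the closest over the 9 genes (Fgfr2 without its long transcript) are given first. Just inside it were the Spry1 peak 93.0 kb past the gene's end, with 7.32-fold, and the Dusp6 peak 91.0 kb before its start, with 8.03-fold. Just outside were the Fgfr2 peak at 100.5 kb, with 9.31-fold, and an Etv4 peak 111 kb past the gene's end, with 3.52-fold. Other peaks outside it were 109 kb upstream of Etv4 with 4.32-fold, 112 kb upstream of Spry2 with 8.54-fold, and past the ends of Etv5 (115 kb, 4.19-fold) and Dusp6 (116 kb, 9.50-fold).

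The Pax motifs looked for, on either strand and at most 50 bp from the summit, were the paired core GTCACG, the combined ATTAGTCA, and TAAT with its reverse complement ATTA spaced by 2 or by 3 bases. At least 1 was present at 10 of the 70 summits (14.3%, interval 7.95 to 24.3%) and at 5 of the 34 (14.7%, interval 6.45 to 30.1%), against 15.4% of all peaks. Both shares differed from that of the list by less than counting error. In windows of the same width 500 bp to either side, none of the 140 flanks of the 70 peaks held one, which allows a share of up to 2.14%, and 2.15% of the flanks of all peaks did. Most of the matches were the paired core, at 9 of the 70 summits (12.9%) and 11.1% of all. The 10 motif peaks of the 70 had a median of 6.21-fold and the other 60 a median of 5.18-fold. In the 34 the medians were 5.62-fold for 5 motif peaks and 5.58-fold for the other 29, and over all peaks 5.58-fold with a motif and 5.12-fold without.

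**Figure D4:**
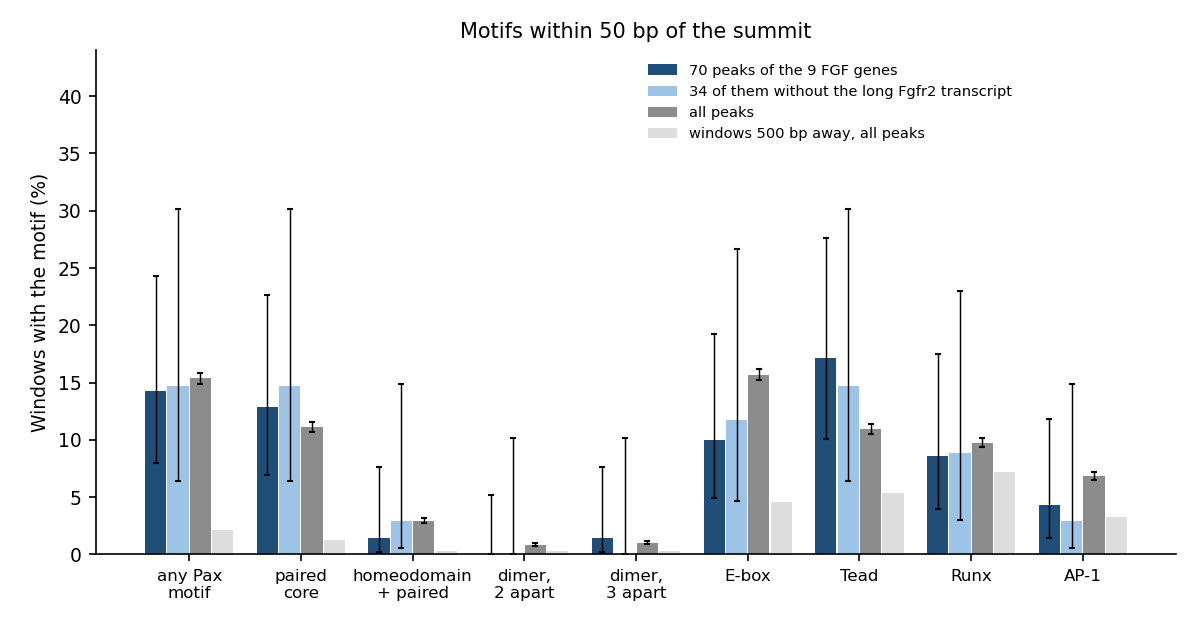
Share of windows with each motif, 50 bp to either side of the summit, (vertical axis, percent) around the summits of the 70 peaks, of the 34 without the long Fgfr2 transcript and of all 20579 peaks, with 95% Wilson intervals, and in windows 500 bp away from all peaks, drawn without intervals. For any Pax motif the bars of the 70 and of all peaks are at 14.3% and 15.4%, while the flanks are at 2.15%. Tead is at 17.1% against 11.0% and the E-box at 10.0% against 15.7%, with both shares of all peaks inside the intervals of the 70.

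Motifs of other factor families that bind muscle enhancers were counted in the same windows. Tead motifs (GGAATG) were at 12 of the 70 summits (17.1%, interval 10.1 to 27.6%) and 5 of the 34 (14.7%), against 11.0% of all peaks and 5.33% of all flanks. E-boxes of the form CAGCTG, bound by myogenic bHLH factors, were at 7 of the 70 (10.0%, interval 4.93 to 19.2%), against 15.7% of all. Runx motifs (TGTGGT) were at 6 and AP-1 motifs (TGANTCA) at 3 of the 70, or 8.57% and 4.29%, against 9.73% and 6.82% of all. Each share of all peaks lay inside the interval of the 70. In the flanks of all peaks E-boxes were at 4.56%, Runx motifs at 7.23% and AP-1 motifs at 3.26%. The flanks of the 70 held Runx motifs at 8.57%, the same share as at their summits. E-boxes were at 2.86% of these flanks, AP-1 motifs at 2.14% and Tead motifs at 5.71%.

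The rest of the pathway was read from a list of 58 genes, of which 57 were found in the annotation (Hras under the name Hras1) and Spry3 was not analysed here. At least 1 peak lay within 100 kb of 56 of the 57 genes (98.2%), above the 75.2% of all coding genes, and 16 of the 57 (28.1%) had a summit within 5 kb of the start, against 18.0% of coding genes. Some of these genes are neighbours and share peaks, such as Fgf3, Fgf4 and Fgf15, so they are not independent. With a window of 50 kb, 48 of the 57 genes had a peak, against 62.1% of coding genes. These windows grow with the gene, and the coding genes were not matched for length. The median was 4 peaks for the other feedback genes, 3 for adaptors and kinases, 3.5 for coreceptors, 2.5 for the other receptors, 2 for ligands and 5 for targets.

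Among the receptors Fgfr4, an FGF receptor of the muscle lineage, had 4 peaks of up to 12.3-fold and Fgfrl1, which lacks a kinase domain, had 1. The ligand genes with the most peaks were Fgf21 with 8 and Fgf5 with 7. Of the coreceptor genes, Klb had 7 and Gpc1 had 5. The docking protein genes Frs2 and Gab1 had 12 and 10 peaks, and the strongest Gab1 peak reached 21.9-fold, more than any at the 9 genes. Of the feedback genes Spred2 had 9 and Spred1 had 6, both encoding inhibitors related to Sprouty. Of the targets Flrt1 had 10 and Etv1, a relative of Etv4 and Etv5, had 9, and Flrt3 had none in the list. Dusp6 at 11 peaks therefore had more than any other feedback gene on the list and fewer than Frs2. Counts grow with the gene, and per 100 kb of window the order changed. Dusp6 had 5.39 peaks per 100 kb, more than any gene on the list. The next were Flrt1 with 4.68 and Frs2 with 4.31, while Gab1, Spred2 and Etv1 had 3.16, 3.00 and 3.12.

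**Figure D5:**
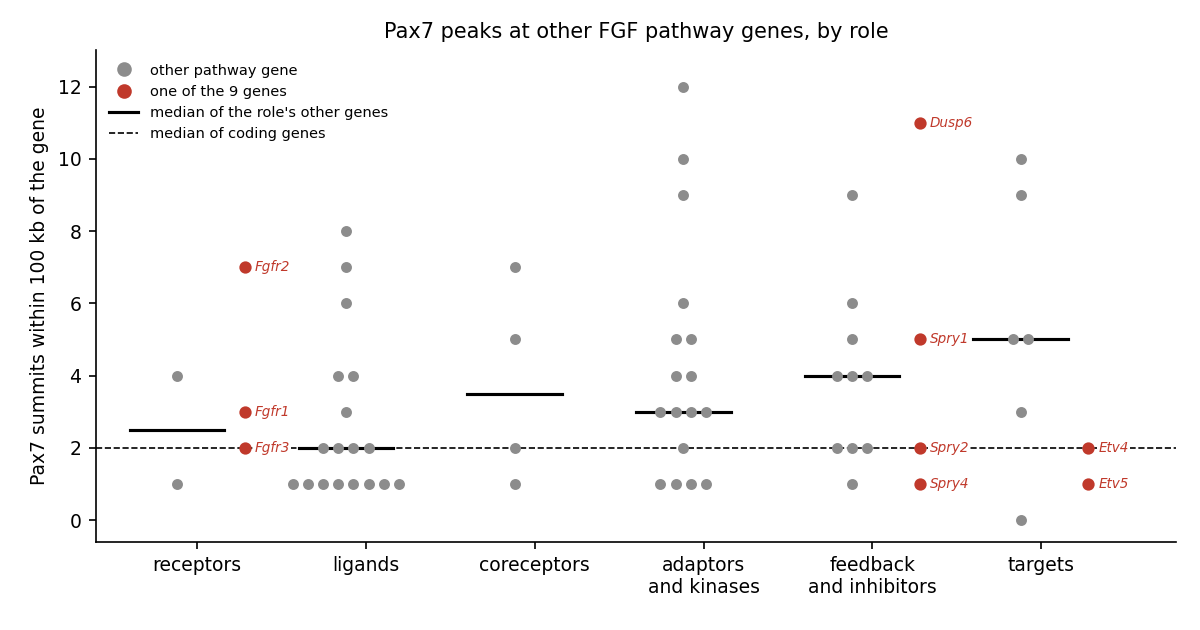
Number of Pax7 summits within 100 kb of each of 57 other FGF pathway genes (grey points, by role) and of the 9 genes (red, named, Fgfr2 without its long transcript), with the median of each role (solid bars) and of all protein-coding genes (dashed, 2). Dusp6 stands at 11 beside a median of 4 for the other feedback genes, and Etv4 and Etv5 stand at 2 and 1 beside a median of 5 for the other targets.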

How the data were processed

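Pax7 ChIP-seq was carried out on 2 ChIP libraries with 2 inputs. Per the methods, the authors used bowtie2 2.3.4.1 for alignment to mm9, Picard 1.88 against duplicates and MACS2 2.1.1 on pooled replicates, with a q-value limit of 0.01, and deposited 1 peak list. Its fold enrichment is a ratio of pooled ChIP reads to local background that the authors obtained from MACS2. The −log10 q and the score of each peak were likewise made by the authors with MACS2 before deposition, the score being the −log10 q multiplied by 10 and cut to a whole number. The p-value column was not used. The list holds no read counts, and the library totals that the study states elsewhere cannot be divided among peaks and were not used, so single peaks have no interval.

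Coordinates are 1-based on NCBIM37, and genes are those of GENCODE release M1 of that build on chromosomes 1 to 19 and X. Peaks were assigned by summit with Python 3.11.15, pandas 2.3.3, numpy 2.4.6, scipy 1.17.1 and matplotlib 3.10.9, and scripts were tested on simulated data. With 1 pooled list there was no test between groups. Intervals of shares are 95% Wilson intervals, and an observed 0 was read as up to 3 counts. For each gene the 3 strongest peaks and those within 5 kb of the start were named, and in the wider pathway the 2 genes with the most peaks in each role. Any further peak was picked with its value in view. The member genes, lists and motifs were chosen with earlier results of these data known. Alternatives were other windows, stricter peaks, merged peaks, nearest start only, other motif windows, and Fgfr2 without its 3.01 Mb transcript, which was added after seeing the data.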

Additional observations from a re-analysis of the deposited data

How the results depend on the processing

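The alternatives gave 75 values, of which 61 stayed within 1.5 times the reported count or density or, for medians and shares, within the interval of the value over the peaks, and 14 did not. Without its long transcript the number of peaks fell from 70 to 34, and the number within 1 kb of a transcript start from 14 to 7. With that transcript left out there were 32 peaks within 100 kb of the gene starts only, 25 with a 50 kb window (2.11 per 100 kb) and 21 with at least 5-fold enrichment (median 7.15-fold). With the record as annotated there were 28 peaks within 100 kb of the gene starts, 41 with at least 5-fold (0.822 per 100 kb, median 7.15-fold), and 26 when a peak counted only for the nearest protein-coding start (0.521 per 100 kb). The number within 5 kb of any transcript start was 27. The fold limit raises the median by its construction, and the start-only windows lose the length of the Fgfr2 record. With the record as annotated, the Fgfr2 start is that of the long transcript, at chr7:140315033 and near a start of Ctbp2. The 28 peaks therefore include peaks around that position and not those around the shorter record's start at chr7:137410322. The number of the 9 genes with a peak was 9 in every alternative except 8 within 50 kb and with at least 5-fold, each with and without the long transcript, 7 within 25 kb, and 6 by nearest start. Among coding genes, 62.1% had a peak within 50 kb, 49.8% within 25 kb and 87.2% within 250 kb. A peak of at least 5-fold within 100 kb was found at 61.3% of them. The list holds no read counts below its q limit, so whether a gene without a peak has weaker binding could not be read from it.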
